A study of Homo sapiens with 12 samples.

Results

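Proteasome subunit genes were followed in MeRIP-seq data from HGC27 cells, an established human gastric carcinoma line, in which FTO had been knocked down. Members were chosen by symbol alone, as every gene named PSM followed by a letter from A to G and a number in a peak list or in the table of differential peaks. The pattern found 32 of the 18329 genes named in the files, and all 32 carried a gene ID that belongs to their symbol. They comprised 4 subunits of the 20S alpha ring, 3 of the constitutive beta ring, 2 inducible beta subunits, 5 ATPases and 9 non-ATPase subunits of the 19S cap, 2 chaperones of 19S assembly, 3 activators, the inhibitor PSMF1 and 3 chaperones of 20S assembly. The remaining 16 of 48 known genes of this pattern, among them PSMB6, PSMD14 and PSMC6, are not analysed here.

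FTO knockdown cells had the genotype label FTO-KO and titles with sh, while control cells had the genotype label WT and titles with Con. The protocol speaks of a knockdown against negative controls, so the treated cells are called FTO knockdown here; the labels name neither the hairpins nor the control construct. Each condition had 3 IP libraries, made with an antibody against N6-methyladenosine (m6A), and 3 input libraries of the same poly(A) RNA fragments, 12 libraries in all. Nothing in the labels says whether libraries of a condition came from separate cultures, so a p-value speaks of the spread between these libraries, which may be technical.

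The proteasome is the protease that degrades ubiquitin-tagged proteins. Its 20S core is a barrel of alpha and beta rings, with the catalytic sites in beta subunits, and its 19S cap binds ubiquitin, removes it and unfolds substrates with a ring of ATPases. Interferon-inducible beta subunits replace constitutive ones in the immunoproteasome, other activators (PA28, PA200) can take the place of the cap, and the transcription factor NFE2L1 (NRF1) raises proteasome gene transcription when proteasome activity falls. m6A is a methyl mark on adenosines of mRNA, concentrated near stop codons and in 3′ UTRs, and FTO is a demethylase that removes it and also acts on m6Am, the methylated adenosine beside the cap.

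FTO itself had 0.786, 0.830 and 0.765 FPKM in knockdown input libraries, against 5.48, 5.68 and 5.52 FPKM in control input libraries. The log2 difference was -1.87 (limma adjusted p = 4.99e-07), so the libraries carry their labelled difference. Input libraries correlated at 0.988 to 0.992 within a condition and at 0.958 to 0.969 between conditions (Pearson's r of log2 values over the genes tested). The FPKM carry no read counts, so sequencing depth is unknown and no counting intervals could be given for expression. Among gastric epithelial markers 1 of 12 had FPKM values (MUC1, summed level 1.19 to 1.61 FPKM in knockdown and 1.19 to 1.26 FPKM in control libraries), since the expression table is limited to genes that have a differential peak, and 6 of the 12 had an m6A peak. Of 8 fibroblast markers, COL1A1 and THY1 had FPKM values, with sums of 153 to 170 FPKM in knockdown and 177 to 189 FPKM in control libraries. COL1A1 was lower after the knockdown (log2 difference -0.20, limma adjusted p = 0.0108) and THY1 higher (0.24, limma adjusted p = 0.00318). None of 6 immune markers had FPKM values. All 8 fibroblast markers and 3 of the 6 immune markers had an m6A peak. In bulk libraries fewer cells of a type and less RNA per cell cannot be told apart.

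By the nearest-gene names of the files, m6A peaks were listed for 26 of the 32 genes in the knockdown list and for 29 in the control list, and 24 genes were named in both. Of all 18329 genes, 13692 were named in the knockdown list and 17466 in the control list. Members were themselves chosen from the genes so named, so high counts follow from the rule. PSMC2, a 19S ATPase, and PSME3, the gamma subunit of PA28, were named in the knockdown list alone. PSME3 had control peaks too, of 2.05-fold and 1.42-fold, which were called on its model but filed under another gene's name. PSMA3, PSMA6, PSMD5, PSMD8 and PSMD12 were named in the control list alone. PSMD5 and PSMD8 had knockdown peaks on their own models, of 4.42-fold and 4.58-fold, filed under other names, and the control peaks of PSMA3 and PSMA6 were called on models of other genes, ACTR10 and PRORP. PSMB7 was named in neither list but had a differential peak. The peaks numbered 36 of 28888 in the knockdown list and 46 of 39492 in the control list. Each condition has a single list, so the difference between the lists has no replicate check.

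Peaks filed under proteasome gene names were weakly enriched beside their whole lists, and some of them were called on other genes' models, as counted below. The enrichment of a peak, IP over input as the authors' peak caller gave it, had a median of 2.97-fold over the proteasome peaks of the knockdown list, beside 7.05-fold over that whole list. In the control list the medians were 3.24-fold and 6.11-fold. Only 7 of 36 proteasome peaks (19.4%) were above the median of the whole knockdown list, and 8 of 46 (17.4%) were above that of the control list. These shares had exact 95% binomial intervals of 8.19% to 36.0% and 7.82% to 31.4%. The intervals cover counting error only, since peaks of a gene are not independent, and no test of the difference was made.

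**Figure D1:**
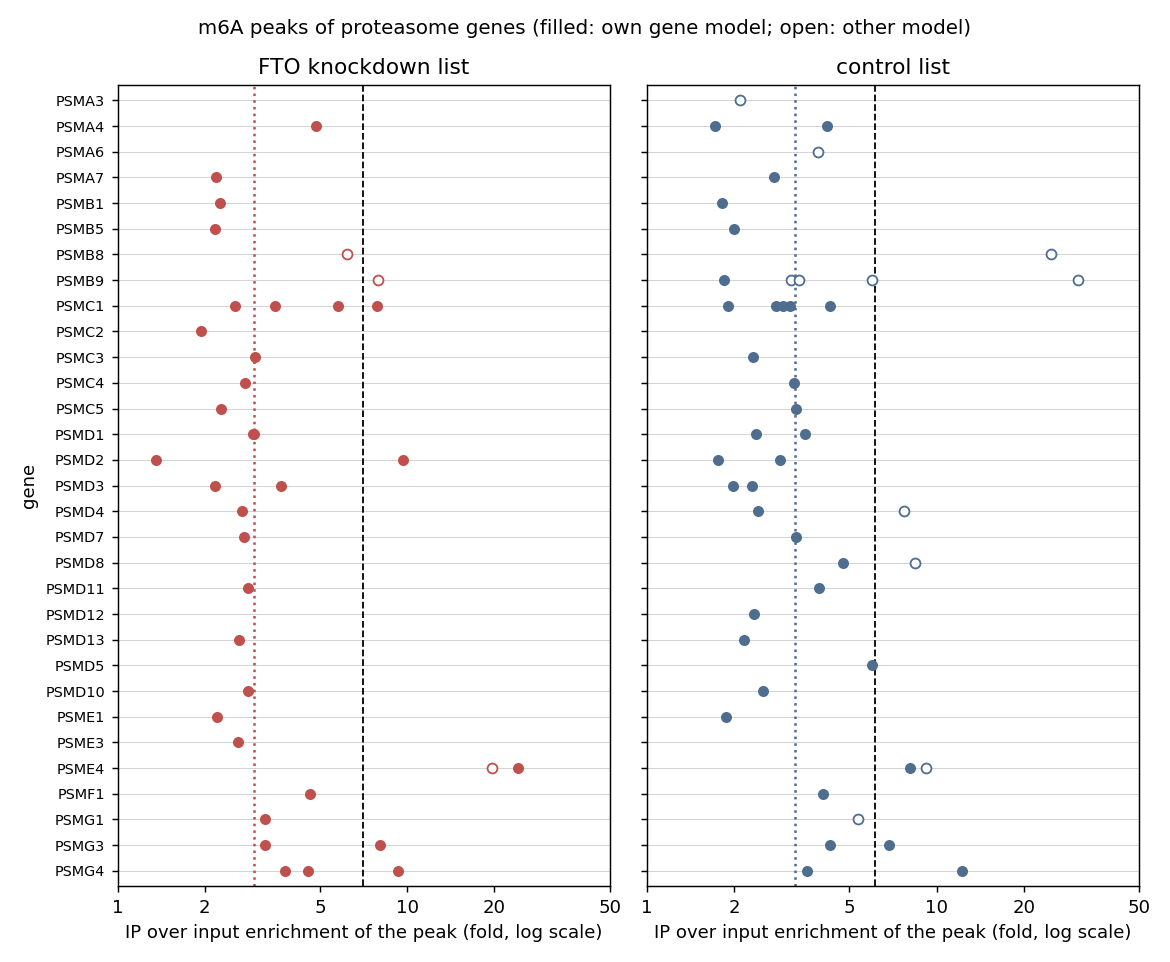
Enrichment of each m6A peak assigned to a proteasome gene, as IP over input on a log axis, in the FTO knockdown list (left) and in the control list (right). Filled points were called on the gene's own model and open points on another gene's model, the dashed line is the median of the whole list (7.05 and 6.11) and the dotted line the median of the proteasome peaks (2.97 and 3.24). Most points lie left of the dashed line, and PSME4, PSMB8 and PSMB9 hold the peaks farthest to the right.

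In the alpha ring, which gates entry to the core, PSMA4 had 1 knockdown peak of 4.85-fold and 2 control peaks of 1.72-fold and 4.20-fold, and PSMA7 had 1 peak of 2.19-fold in the knockdown and 2.75-fold in the control list. In the beta ring, PSMB1 had a peak of 2.26-fold in the knockdown and 1.81-fold in the control list. PSMB5, the chymotrypsin-like subunit, had one of 2.16-fold and 2.00-fold.

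Among the ATPases, which unfold substrates, PSMC1 had the most peaks, 4 in the knockdown list of 2.55-fold to 7.88-fold and 5 in the control list of 1.90-fold to 4.28-fold. PSMC3, PSMC4 and PSMC5 had 1 peak in each list, between 2.28-fold and 2.97-fold in the knockdown and between 2.33-fold and 3.26-fold in the control list. PSMC2 had the lowest enrichment of the ATPases in the knockdown list, 1.94-fold. Among the non-ATPase subunits, PSMD1, PSMD2, PSMD3, PSMD4, PSMD7, PSMD11 and PSMD13 had peaks in both lists. Outside the 5′ peak of PSMD2, their knockdown peaks lay between 1.36-fold and 3.67-fold. The control peaks of PSMD12 and PSMD8 on their own models and under their own names had 2.34-fold and 4.77-fold enrichment. PSMD8 had another control peak on its model, of 5.04-fold, filed under another name.

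Of the assembly chaperones, PSMD10 (gankyrin), which escorts the ATPase ring, had a peak of 2.82-fold in the knockdown and 2.52-fold in the control list. PSMD5 had one of 5.99-fold in the control list under its own name. PSMG1, a chaperone of the alpha ring, had a knockdown peak of 3.23-fold at its 5′ end, and its control peak was called on BRWD1. PSMG3 had a 3′ UTR peak of 8.02-fold in the knockdown and 4.30-fold in the control list, and a 5′ UTR peak in each list at places that did not overlap. Both 5′ UTR peaks lay beyond the RefSeq span of PSMG3. By the authors' peak caller, the log10 adjusted p was -0.625 for the control 5′ UTR peak of PSMG3 and -1.11 for the control peak of PSMG1. Neither passed at an adjusted p of 0.05. Under its own name PSMF1 (PI31) had 1 peak of 4.60-fold in the knockdown and 4.04-fold in the control list, and PSME1, the alpha subunit of PA28, had one of 2.20-fold and 1.87-fold. Another peak on the PSMF1 model, of 9.57-fold in the knockdown and 12.1-fold in the control list, was filed under AL031665. It lies beyond the RefSeq span of PSMF1. A 3′ UTR peak on the PSME4 model, of 5.57-fold and 5.28-fold, was filed under ASB3.

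The 5 most enriched peaks filed under a proteasome gene's name were then read in each list. In the knockdown list PSME4, which encodes the activator PA200, led with 24.1-fold at chr2:53970813-53970993, followed by 19.6-fold at chr2:53970838-53971047 on the model of its divergent neighbour ACYP2. PSMD2 followed with 9.70-fold at chr3:184299198-184299407 in its 5′ UTR, PSMG4 with 9.30-fold at chr6:3237652-3237772 and PSMG3 with 8.02-fold at chr7:1567362-1567810. In the control list PSMB9 led with 30.8-fold at chr6:32845125-32845633 and PSMB8 followed with 24.9-fold at chr6:32845209-32845627, on the models of PSMB8-AS1 and TAP1. These peaks overlap in position, as do the PSME4 peaks above, and each is counted in the totals. PSMG4 at chr6:3231822-3237772 (12.2-fold), PSME4 at chr2:53970838-53971047 on the ACYP2 model (9.16-fold) and PSMD8 at chr19:38370704-38370943 on the CATSPERG model (8.40-fold) came next. By the authors' peak caller this PSMD8 peak had a log10 adjusted p of -1.29, which just misses an adjusted p of 0.05.

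Gene names in the files are those of the nearest gene, and a peak can have been called on another gene's model. This held for 3 of the 36 knockdown peaks (8.33%) and for 11 of the 46 control peaks (23.9%), against 21.7% and 22.6% of the whole lists. Read by the gene model instead, the proteasome genes had 43 knockdown peaks on 28 genes and 49 control peaks on 29 genes, a reading chosen after the data were seen. Of the 68 peaks that carried a proteasome gene's name and were called on its own model, 63 lay within 1000 bp of its span in RefSeq (GRCh38.p14). Peaks filed under other names were not in this check, and some lay outside the gene. A control peak on the PSMB5 model was at chr14:23016573-23016632, while PSMB5 spans chr14:23025851-23035220. The other 5 of the 68 were all of PSMG4, so its peak values are uncertain. PSMG4 spans chr6:3254404-3268049 in RefSeq, and those peaks lay outside it on both sides.

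Proteasome peaks were annotated mostly to UTRs of the transcript the files name, which need not be the main mRNA. In the knockdown list 14 of 36 (38.9%) were annotated to a 5′ UTR, with an exact 95% binomial interval of 23.1% to 56.5%, beside 13.9% of all peaks. In the control list the share was 14 of 46 (30.4%, 17.7% to 45.8%), beside 12.6%. Exonic peaks outside the UTRs made up 3 of 36 (8.33%) and 5 of 46 (10.9%) proteasome peaks, beside 39.6% and 39.8% of all peaks. Shares in the 3′ UTR were 52.8% in the knockdown and 58.7% in the control list, beside 46.5% and 47.6%. The annotated transcript was a retained-intron isoform for 12 of 36 knockdown peaks (33.3%) and 14 of 46 control peaks (30.4%), beside 17.5% and 17.0% of all peaks.

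**Figure D2:**
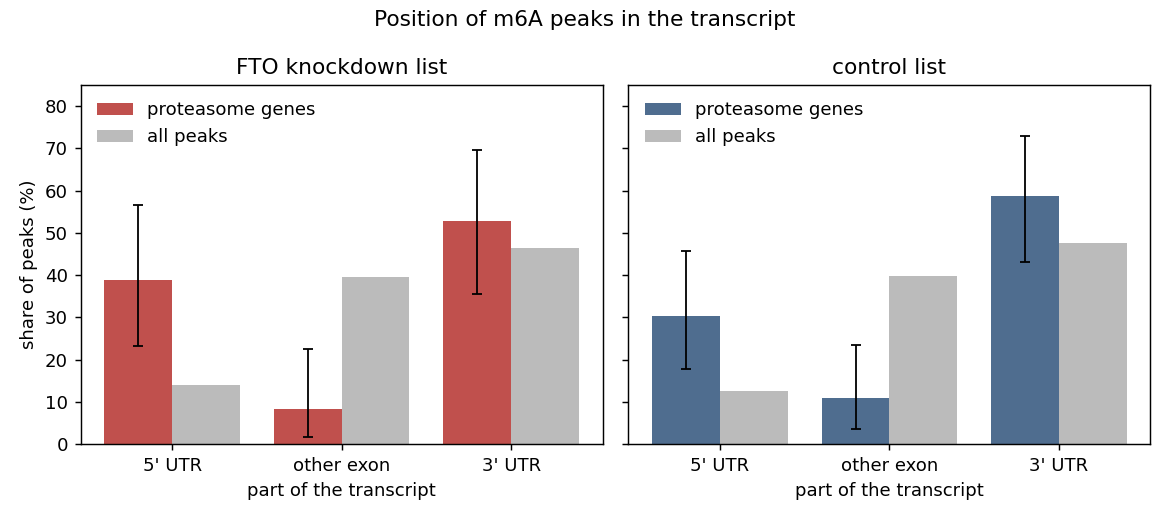
Share of m6A peaks annotated to the 5′ UTR, to other exons and to the 3′ UTR, in the FTO knockdown list (left) and in the control list (right). Coloured bars are the 36 and 46 proteasome peaks with exact 95% binomial intervals, and grey bars are all peaks of the list. The 5′ UTR bar of the proteasome genes stands above its grey bar in both panels (38.9% beside 13.9%, and 30.4% beside 12.6%), and the bar for other exons stands below it.

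Many of the 5′ peaks overlapped the first 30 bases of the transcript. Among genes with a peak on their own model and a RefSeq start, 10 of 20 proteasome genes had a knockdown peak over the first 30 transcribed bases, beside 16.7% of 7672 genes of that list. In the control list 8 of 21 (38.1%) had one, beside 19.3% of 9236 genes. This was so in both lists for PSME4, PSMD2, PSMB5, PSMC1, PSMD3, PSMC4 and PSMD10. A partial overlap counted. The knockdown peak of PSMD10 held 7 of the 30 bases and that of PSMC1 held 26, and neither reached the first base. PSMC2, PSME3 and PSMG1 had such a peak in the knockdown list alone, and PSMB9 in the control list alone. A peak of antibody-enriched fragments at a start site can hold m6A or m6Am, and the values here cannot tell them apart. The first 30 bases of the 7 genes with a start-site peak in both lists are given because m6Am can occur only where the first base is A. They are RefSeq sequences of GRCh38.p14, written 5′ to 3′, with the first transcribed base in capitals.
PSME4: Agagcggccgctgccgccgccaacgaactg
PSMD2: Gcagcgggccggcagtggcggcggagatgg
PSMB5: Ctttctgcccacactagacatggcgcttgc
PSMC1: Ggtggaggaacttccggcagcggcagctca
PSMD3: Agaaggcccagcgccgggaaggggtttgca
PSMC4: Agatcatcccaggccacacagaggccggct
PSMD10: Aagtagttgctgggacagcgaaatggaggg

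At the start with a peak in its first 30 bases, the first base was A in PSME4, PSMD3, PSMC4 and PSMD10, G in PSMD2 and PSMC1, and C in PSMB5. The peak of PSMB5, chr14:23034662-23035141, reached upstream of that start, chr14:23034900 on the reverse strand. That of PSMD2, chr3:184299198-184299407, began before its start, chr3:184299241, and control peaks of PSMC1 and PSMD10 also reached past theirs. The first base in use at these genes is therefore uncertain. PSMB5 has another RefSeq start, chr14:23035220, whose first base is A and whose first 30 bases no peak covered. Over all 11 starts covered by a peak of either list it was A in 6, G in 4 and C in 1, beside 44.4% A, 33.6% G and 14.7% C over all start windows in the RefSeq table. The start of PSME4 is at chr2:53970993 on the reverse strand, and its knockdown peak ended on that base. The peak of PSMD3 began on the start, chr17:39980807 on the forward strand, in both lists. The peaks of PSMC4 also began on the start, chr19:39971165, in both lists.

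Promoters were read because 6 proteasome genes had higher FPKM after the knockdown, as given below. The motif TGACNNNGC, the core of the antioxidant response element to which NFE2L1 can bind, was searched on both strands in the 250 bases before each RefSeq start. It was found in 9 of the 35 windows of 27 proteasome genes (25.7%), beside 10.9% of 35116 windows of all genes. The CCAAT box was found in 13 windows (37.1%), beside 32.0% of all. The antioxidant core TGAGNNNGC was in 8 windows (22.9%), beside 14.8% of all. The 9 matches of TGACNNNGC read TGACTCGGC in PSMD3, TGACTCTGC in PSMA4, TGACCCCGC in PSME1, TGACACAGC in PSMC5, TGACACGGC in PSMD5, TGACGAGGC in PSMB9, TGACAGCGC in PSMG1, and TGACGCTGC in both PSMD12 and PSME4. Those of PSMC5, PSMB9 and PSME4 lay on the strand opposite to the gene. A match is a description of the letters, not of binding.

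The windows of 4 of the 19S genes whose FPKM was higher follow, to show how they differ. Each is the RefSeq sequence of the 250 bases before the start in GRCh38.p14, 5′ to 3′ on the forward strand. Capitals mark TGACNNNGC or a CCAAT box on either strand.
PSMD3: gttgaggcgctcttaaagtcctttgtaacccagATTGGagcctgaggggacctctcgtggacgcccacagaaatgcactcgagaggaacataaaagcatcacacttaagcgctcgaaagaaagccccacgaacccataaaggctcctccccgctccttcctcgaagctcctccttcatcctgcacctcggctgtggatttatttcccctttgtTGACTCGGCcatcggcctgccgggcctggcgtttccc
PSMD2: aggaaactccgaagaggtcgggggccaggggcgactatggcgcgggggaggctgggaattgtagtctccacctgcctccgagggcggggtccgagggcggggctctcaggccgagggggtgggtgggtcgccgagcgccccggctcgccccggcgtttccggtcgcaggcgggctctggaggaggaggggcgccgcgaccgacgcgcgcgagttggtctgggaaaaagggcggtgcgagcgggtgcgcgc
PSMD11: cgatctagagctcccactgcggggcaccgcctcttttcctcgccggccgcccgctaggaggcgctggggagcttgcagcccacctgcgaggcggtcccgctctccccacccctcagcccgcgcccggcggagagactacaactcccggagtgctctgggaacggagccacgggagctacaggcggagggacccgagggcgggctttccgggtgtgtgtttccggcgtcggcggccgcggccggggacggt
PSMC1: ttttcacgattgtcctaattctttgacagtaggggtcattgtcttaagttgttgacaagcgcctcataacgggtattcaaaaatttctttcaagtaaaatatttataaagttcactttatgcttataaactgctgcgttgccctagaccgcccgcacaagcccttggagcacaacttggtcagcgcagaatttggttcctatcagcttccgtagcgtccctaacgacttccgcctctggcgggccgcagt

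These windows lie at chr17:39980557-39980806 for PSMD3, chr3:184298991-184299240 for PSMD2, chr17:32444260-32444509 for PSMD11 and chr14:90256303-90256552 for PSMC1. Of the 4, PSMD3 holds TGACTCGGC, which begins 37 bases before its start, and an inverted CCAAT box 217 bases before it. PSMD2, PSMD11 and PSMC1 hold neither motif in this window.

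Of the 32 genes, 9 had FPKM values, and all 9 passed the filter of a mean of 1 FPKM over the 6 input libraries. Of these, 6 rose after the knockdown (PSMB7, PSMD11, PSMD2, PSMD3, PSMC1 and PSMB8), PSMG4 fell, and PSMB9 and PSMA6 did not pass the test. Over all 4515 genes tested, 24.5% rose and 37.9% fell at an adjusted p of 0.05, and 62.4% were called in either direction. The knockdown and control libraries did not overlap for 7 of the 9, of which 6 lay above and 1 below the controls, beside 67.8% of all genes (27.3% above and 40.5% below), so the share without overlap in either direction was near the background. The median log2 change was 0.35 over the 9 genes and -0.069 over all genes tested. Expression was deposited only where a gene had a differential peak, so the 9 genes are a selected part of the 32.

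**Figure D3:**
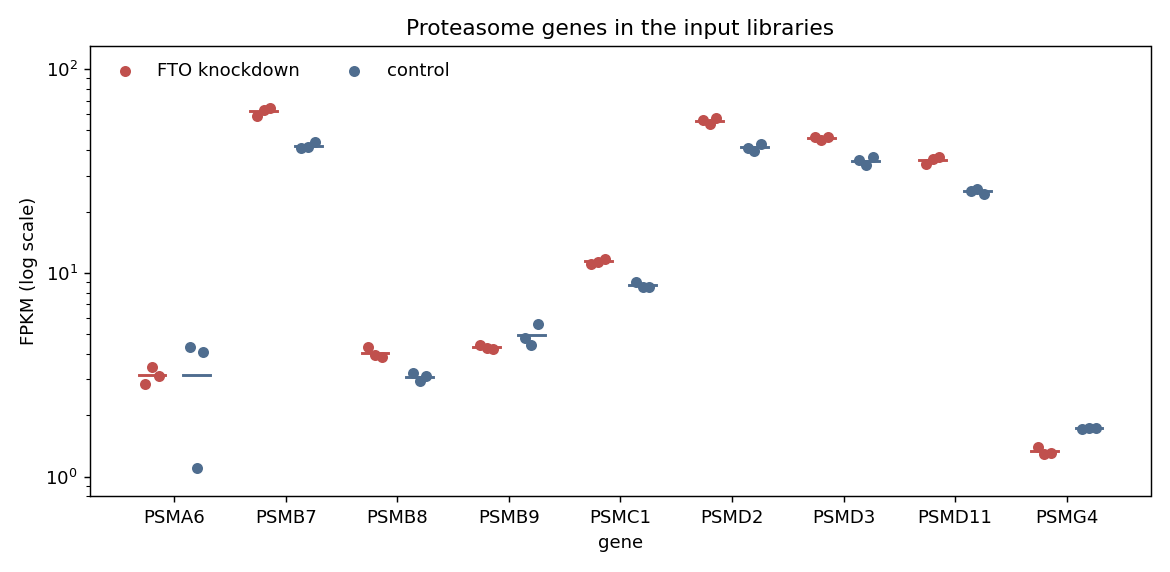
FPKM on a log axis of the 9 proteasome genes with expression values, in 3 FTO knockdown input libraries (left of each pair) and 3 control input libraries (right). Points are libraries and bars are means. The knockdown points lie above the control points in PSMB7, PSMB8, PSMC1, PSMD2, PSMD3 and PSMD11 and below them in PSMG4, and 1 control library of PSMA6 stands at 1.10 FPKM, below the others.

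PSMB7, the trypsin-like catalytic subunit of the beta ring, had 58.8, 62.8 and 64.6 FPKM in knockdown libraries, against 41.1, 41.3 and 44.1 FPKM in control libraries. Every knockdown library was above every control library. The means were 62.1 ± 2.93 and 42.2 ± 1.66 FPKM (SD, n = 3 each), a ratio of 1.47 and a log2 difference on the log2(FPKM + 1) scale of 0.55 ± 0.049 (SE; limma adjusted p = 6.57e-05). In the alpha ring, PSMA6 had 2.84, 3.45 and 3.12 FPKM in knockdown libraries, against 4.33, 1.10 and 4.07 FPKM in control libraries. The groups overlapped because of control library 2, and the log2 difference was 0.10 ± 0.32 (SE; limma adjusted p = 0.793). Without control library 2 it was -0.33, with a limma adjusted p of 0.00911, so the call and the sign for PSMA6 rest on that library.

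The inducible beta subunits PSMB8 and PSMB9, which replace constitutive catalytic subunits in the immunoproteasome, had low levels. PSMB8 had 4.32, 3.96 and 3.84 FPKM in knockdown libraries, against 3.22, 2.93 and 3.11 FPKM in control libraries. The groups did not overlap, and the log2 difference was 0.30 ± 0.055 (SE; limma adjusted p = 0.00198). PSMB9 had 4.44, 4.27 and 4.24 FPKM in knockdown libraries, against 4.80, 4.44 and 5.62 FPKM in control libraries. Knockdown library 1 and control library 2 were level, and the log2 difference of -0.16 ± 0.072 (SE) did not pass (limma adjusted p = 0.0885). Without control library 2 it was -0.22, with a limma adjusted p of 0.0308. Among interferon-responsive genes read beside them, IRF1 rose (log2 difference 0.42, limma adjusted p = 0.000203), and B2M and STAT2 fell by 0.51 and 0.52 (limma adjusted p = 0.000931 and 5.95e-05). Their part in the levels of PSMB8 and PSMB9 was not tested.

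In the ATPase ring, PSMC1 (Rpt2), a subunit whose tail helps to open the gate of the core, had 11.1, 11.3 and 11.7 FPKM in knockdown libraries, against 9.03, 8.51 and 8.54 FPKM in control libraries. Every knockdown library was higher. The log2 difference was 0.35 ± 0.043 (SE; limma adjusted p = 0.000273), a ratio of 1.31. The 3′ part of the span of PSMC1 overlaps that of NRDE2 in RefSeq. No source used here says that counting used strand, so reads of the pair cannot be told apart there.

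All 3 non-ATPase cap subunits with FPKM values rose. PSMD11 (Rpn6), a scaffold that clamps the cap to the core, had 34.3, 36.0 and 36.9 FPKM in knockdown libraries, against 25.2, 25.7 and 24.4 FPKM in control libraries. The groups did not overlap, the ratio was 1.42 and the log2 difference 0.49 ± 0.042 (SE; limma adjusted p = 5.49e-05). PSMD2 (Rpn1), a docking subunit of the cap base for ubiquitin and its shuttles, had 56.1, 53.8 and 57.3 FPKM in knockdown libraries, against 41.2, 39.9 and 42.9 FPKM in control libraries. Its knockdown libraries were all above its controls, with a log2 difference of 0.42 ± 0.044 (SE; limma adjusted p = 0.000126). PSMD3 (Rpn3), a structural subunit of the lid, had 46.3, 44.9 and 46.2 FPKM in knockdown libraries, against 36.0, 33.7 and 36.9 FPKM in control libraries. Those groups did not overlap either, with a log2 difference of 0.36 ± 0.044 (SE; limma adjusted p = 0.000279).

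PSMG4 (PAC4), a chaperone of alpha ring assembly, had 1.39, 1.29 and 1.31 FPKM in knockdown libraries, against 1.71, 1.74 and 1.73 FPKM in control libraries. Each knockdown library was below each control library, and the log2 difference was -0.23 ± 0.050 (SE; limma adjusted p = 0.00503). With quantile normalization it was -0.037 (limma adjusted p = 0.555) and with median-centring -0.13 (limma adjusted p = 0.0519), so the call depends on scaling. The authors' deposited table gave a q-value of 0.178 for the expression of PSMG4.

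The direction and call of PSMB7, PSMD11, PSMD2, PSMD3 and PSMC1 held under every pseudocount, filter, scaling and left-out library tried, and those of PSMB8 wherever its level passed the filter. In the authors' deposited table the q-values of these genes ran from 8.36e-15 for PSMB7 to 0.00165 for PSMB8, and those of PSMA6 and PSMB9 were 0.783 and 0.829. Scaling moved the split over all genes: higher calls made up 39.3% of calls as deposited, 52.5% with quantile normalization and 55.4% with median-centring. The median log2 change of all genes was -0.069 as deposited, 0.010 with quantile normalization and 0.024 with median-centring.

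Under the gene names of the files, differential m6A peaks were listed for the same 9 genes, with 11 peaks in all. The authors' deposited table gives control over knockdown, and its values were turned to knockdown over control. By the authors' deposited table m6A was higher after the knockdown at 6 of the 11 peaks and lower at 5, beside 55.4% higher and 44.6% lower of 8687 peaks. The lower peaks named PSMB8 and PSMB9 are the same stretch, counted under both names. At an adjusted p of 0.05, 10 of the 11 passed in the authors' deposited table, beside 88.2% of all. The share of proteasome peaks in each direction was near the background. No values per library were given for m6A, so these changes carry no SD here.

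Of the 6 genes whose FPKM rose, PSMB7, PSMC1 and PSMD3 had higher m6A and PSMD2 and PSMD11 had lower m6A at their listed peaks. The peaks of PSMB7 and PSMC1 also overlap other genes, LOC100129034 and NRDE2, so their m6A is not securely that of the named gene. The peak filed under PSMB8 was also lower, but it lies outside the span of that gene. The peak filed under PSMG4, whose fall depends on scaling, was higher and likewise lies outside the gene. Higher proteasome transcript levels stood beside m6A changes of either sign.

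**Figure D4:**
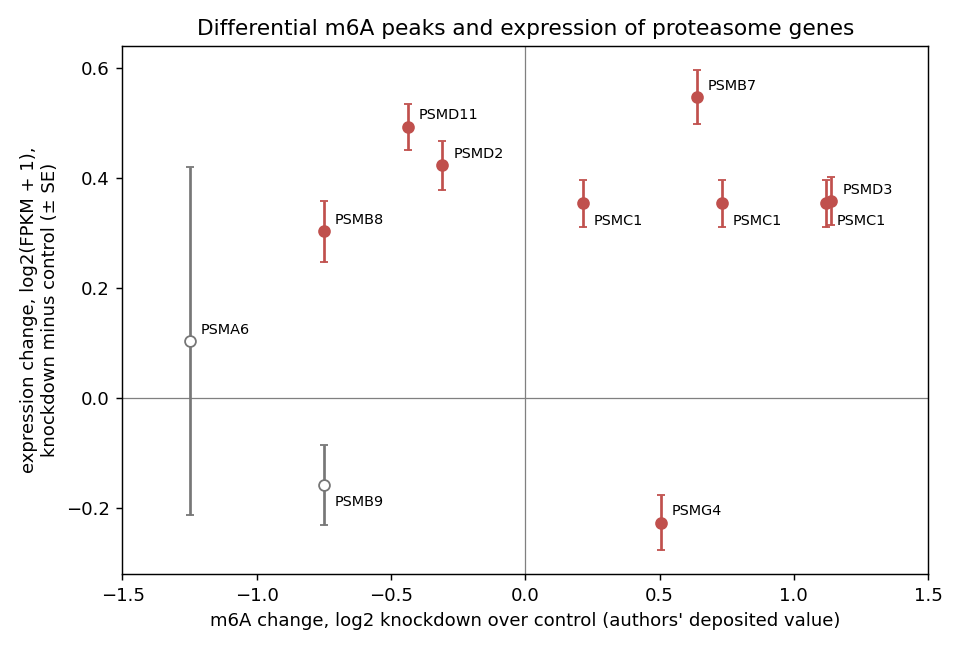
Change of m6A at each differential peak of a proteasome gene (horizontal, log2 of knockdown over control, the authors' deposited value) against the gene's change in expression (vertical, log2(FPKM + 1), knockdown minus control, with SE from limma). Filled points are genes that passed at an adjusted p of 0.05 and open points did not; PSMC1 has 3 peaks. Genes with higher expression lie on both sides of 0 on the horizontal axis, from -0.44 for PSMD11 to 1.14 for PSMD3, and the points of PSMB8, PSMB9, PSMA6 and PSMG4 stand for peaks outside the span of those genes. The peaks of PSMB7 and PSMC1 also overlap another gene.

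The gain with the smallest p was at the start of PSMD3, whose first bases are printed above. In the authors' deposited table its 5′ UTR peak at chr17:39980807-39981075 had a log2 change of 1.14, a ratio of 2.20 (p = 3.98e-21). The enrichment of that peak was 3.67-fold in the knockdown and 2.31-fold in the control list. In the authors' deposited table the 3 PSMC1 peaks, on a retained-intron isoform, had log2 changes of 0.21 at chr14:90270221-90272589 (p = 2.14e-05), 1.12 at chr14:90273576-90273934 (p = 0.000200) and 0.73 at chr14:90274831-90275429 (p = 0.00132). All 3 also lie in the span of NRDE2. The PSMB7 peak at chr9:124353465-124353644, in the 3′ UTR of a non-coding isoform, had 0.64 in the authors' deposited table (p = 1.58e-14). It overlaps LOC100129034 in RefSeq and is in neither peak list.

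Of the losses filed under a proteasome gene's name, those of PSMD11 and PSMD2, both cap subunits, lay within the gene. Their peaks were annotated to the 3′ UTR of retained-intron isoforms. In the authors' deposited table PSMD11 had a log2 change of -0.44 at chr17:32480988-32481436 (p = 1.58e-37), beside enrichments of 2.81-fold in the knockdown and 3.93-fold in the control list. PSMD2 had -0.31 at chr3:184301915-184302243 in the authors' deposited table (p = 8.32e-07), with enrichments of 1.36-fold and 1.76-fold. Its start-site peak, with 9.70-fold in the knockdown and 2.88-fold in the control list, was not among the differential peaks.

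For the remaining losses the gene name is not secure. The peaks named PSMB9 (chr6:32845184-32845603) and PSMB8 (chr6:32845209-32845597) are the same stretch. The authors' deposited table gave a log2 change of -0.75 for either name (p = 3.98e-20 and 6.31e-20). It lies 8589 bp from the RefSeq span of PSMB9 and 530 bp from that of PSMB8, within TAP1 and PSMB8-AS1. The PSMA6 peak at chr14:35275732-35275852 had -1.25 in the authors' deposited table (p = 0.0479, adjusted p = 0.112) and lies 2706 bp from PSMA6, within PRORP. The PSMG4 peak at chr6:3270580-3282309 had 0.51 in the authors' deposited table (p = 0.00417) and lies 2531 bp beyond PSMG4, within SLC22A23. Of the 11 peaks, 7 were inside the RefSeq span of the named gene, and those of PSMD2, PSMD11 and PSMD3 overlapped no other gene.

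Other genes of the ubiquitin-proteasome pathway did not share 1 direction. Of 48 genes on 5 lists of partners, 16 were tested, of which 6 rose and 5 fell, beside 24.5% and 37.9% of all genes. The AAA ATPase VCP (p97), which extracts ubiquitinated proteins for the proteasome, had 84.2, 87.2 and 90.9 FPKM in knockdown libraries, against 63.3, 59.6 and 61.4 FPKM in control libraries. Its groups did not overlap, with a log2 difference of 0.50 ± 0.044 (SE; limma adjusted p = 6.23e-05), in the range of the proteasome genes. On the p97 list its adaptor NSFL1C (p47) also rose, by 0.30 (limma adjusted p = 0.00307), and UBXN1 fell by 0.14 (limma adjusted p = 0.0487).

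NFE2L1, the factor that raises proteasome transcription, fell: it had 58.1, 59.7 and 61.3 FPKM in knockdown libraries, against 69.2, 71.8 and 69.3 FPKM in control libraries. The groups did not overlap, and the log2 difference was -0.23 ± 0.039 (SE; limma adjusted p = 0.00143). Its relative NFE2L3 had 7.65, 7.87 and 7.62 FPKM in knockdown libraries, against 17.7, 17.1 and 13.1 FPKM in control libraries, a ratio of 0.482 (limma adjusted p = 0.000123). Of the small MAF partners, MAFF rose by 0.43 (limma adjusted p = 0.000373) and MAFK did not pass (-0.21, limma adjusted p = 0.168).

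Of the ubiquitin genes, UBB rose by 0.14 (limma adjusted p = 0.0451), RPS27A fell by 0.43 (limma adjusted p = 0.00590), and the E1 enzyme UBA1 did not pass (-0.030, limma adjusted p = 0.640). Of the factors that bind the proteasome, the shuttle UBQLN4 rose by 0.19 (limma adjusted p = 0.00610). AKIRIN2, which takes assembled proteasomes into the nucleus, fell by 0.26 (limma adjusted p = 0.00436). UBE3A and UBQLN2 did not pass (limma adjusted p = 0.0922 and 0.625). On the list of related genes outside the symbol pattern, PSMC3IP did not pass (0.11, limma adjusted p = 0.407).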

How the data were processed

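MeRIP-seq of HGC27 cells gave 3 IP and 3 input libraries per condition, and samples were grouped by their titles. The proteasome genes, the pathway lists and the rules were chosen with earlier results of these data known. Tools listed without roles per the submitters' processing notes are Bowtie 0.12.2, StringTie 1.3.0 and HISAT2 2.0, and no source used here names the peak caller. The same notes name the mouse build mm8, but the positions match human GRCh38, so they are read as GRCh38. File starts count from 0, and 1 was added.

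Expression came as FPKM of each input library, as the authors deposited them, for 6396 genes with a differential m6A peak. The smallest FPKM above 0 was 7.49e-07, so read steps could not be recovered and depth is unknown. The deposited differential table gives log2 changes of m6A and expression as control over knockdown, which were turned round; the turned m6A value had a Spearman rho of 0.857 with the log2 ratio of peak enrichment over 4052 peaks. It also gives, per the file headers, p-values and a score, which is log10 of the p-value after adjustment by the authors. The peak lists give each peak's fold enrichment (a ratio of IP to input) and, as scores, log10 p-values, per the file headers, in a single list per condition. All listed peaks were counted, including some control peaks that do not pass at an adjusted p of 0.05. A further 283 differential entries without a gene name had p-values above 1 and were left out, as were 3 duplicate entries of the knockdown list.

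Expression was tested with limma 3.58.1 in R 4.3.3 (empirical Bayes with trend, two-sided) on log2(FPKM + 1) over the 4515 genes whose mean reached 1 FPKM, with Benjamini-Hochberg adjustment over all of them. The script was tested on simulated data with known changes. Fold changes on this scale understate those of low genes. Peaks overlapped where they shared at least 1 exonic base. Values per library are given for members that passed the test without overlap between groups, up to 3 in each role, and otherwise for the member of a role with the smallest p. Peaks described in full are the 5 of highest enrichment under a proteasome gene's name in each list, and position, change and p are given for all 11 differential peaks. PSMB9 and the partner genes were added to them from fixed lists. Sequences came from the RefSeq promoter table of GRCh38.p14, which held 27 of the 32 genes. Alternatives changed the pseudocount, filter, scaling, replicate block, libraries, peak threshold and overlap. Values of 1 partner gene are not reported here.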

Additional observations from a re-analysis of the deposited data

How the results depend on the processing

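The 6 proteasome genes that rose kept their call in all alternatives in which they were tested. The count of proteasome genes called lower, 1 as reported, was 0 with a filter of 5 FPKM, with quantile normalization and with median-centring, and ranged from 1 to 3 when a library was left out (3 without control input 2). The log2 difference of PSMA6 turned to -0.33 without control input 2 and ranged up to 0.34 over the libraries left out; that of UBA1 turned to 0.063 with median-centring and ranged from -0.061 to 0.019 over the libraries left out. The calls of UBB and UBXN1 were lost in 6 and 7 of 12 alternatives. The filter of 5 FPKM left 1603 genes called and 773 called lower, since fewer genes were tested. Peaks of at least 4-fold enrichment numbered 12 in the knockdown and 16 in the control list, against 36 and 46 as reported, and 66.7% of those knockdown peaks overlapped the other list, against 86.1%. At a peak adjusted p of 1e-05 the control share was 82.4%, against 67.4%. Without these thresholds, 88.8% of all knockdown peaks and 57.9% of all control peaks overlapped the other list. The exact 95% binomial intervals of the proteasome shares, 70.5% to 95.3% and 52.0% to 80.5%, include those values. An alternative added after seeing the data counted only differential peaks under a proteasome gene's name that were called on its own model. It left 2 lower peaks, against 5, and 5 higher, against 6. The construction removes the PSMB8, PSMB9, PSMA6 and PSMB7 peaks. It does not add the losses on the PSME4 and PSMA2 models, which were filed under other names.

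The labels do not say whether numbers 1 to 3 pair the libraries. Deviations of same-numbered libraries from their group means correlated at -0.077, 0.028 and 0.025. Those of differently numbered libraries correlated at -0.176 to 0.189. These values show no sign of pairing but, with means of 3 libraries, cannot exclude it. With the replicate number as a block, 2747 genes were called (1074 higher and 1673 lower), against 2819, and the proteasome counts were the same. Depth is unknown for expression and peaks, so no limit from counting can be given.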
